A study of Rattus norvegicus with 8 samples.

Results

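The windows described here are 101 stretches of 20 kb of the rat genome in which differences in CpG methylation between hippocampus and hypothalamus lay close together. They were chosen by a rule that used those differences. CpG dyads (a CpG counted once, with the calls of its 2 strands added) of chromosomes 1 to 20 were kept when all 8 libraries had at least 10 calls, and tiles of 1 kb with at least 3 such dyads were tested. A tile was said to differ when the 2 tissue means lay at least 10 percentage points apart and all 4 libraries of one tissue lay above all 4 of the other. A fixed 20 kb window entered the set when it held 3 or more differing tiles. Of 49769 windows with a tested tile, 11380 had the 3 tested tiles that the rule needs, and 101 of these (0.888%) met it. Because the tissue difference chose the tiles and the windows, its values are given as a description, with no test.

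The libraries came from male Sprague Dawley rats, an outbred laboratory strain, given the omega-3 fatty acid docosahexaenoic acid (DHA) in the diet for 6 weeks from the age of 2 months, and tissue was the contrast. All 8 libraries, 4 of hippocampus and 4 of hypothalamus, carry the same diet label. The sample labels and the design text name DHA alone, while the treatment note in the labels reads fructose, DHA or both, which the sources used here do not resolve. The chow-fed group was not analysed here. Methylation was read by RRBS (reduced representation bisulfite sequencing), in which the enzyme MspI cuts at CCGG and bisulfite converts unmethylated cytosine, so that a methylation level is the share of calls read as methylated. Both tissues are mixtures of neurons and glia, and a different mixture of cells cannot be told apart from a different level within a cell type.

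Methylation of the CpG dinucleotide is copied at cell division by a maintenance methyltransferase, and most CpGs of mammalian brain DNA are methylated, while CpG-rich promoters are usually free of it. Levels between these extremes are typical of regulatory DNA outside promoters, where the level differs between tissues and cell types. Genes for transcription factors of embryonic patterning often sit in wide CpG-rich domains of low methylation. The hippocampus arises from the dorsal telencephalon and the hypothalamus lies in the ventral forebrain.

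In 12 of the windows a gene start was placed by matching RefSeq promoters to the pattern of listed cytosines. The 250 bases before 4 of these starts are shown because they are the places where gene and window can be tied together. Capitals mark CpG dinucleotides. The coordinates are those of the RefSeq assembly GRCr8 and the sequences run 5′ to 3′ in the direction of the gene. Neurog2 lies at chr2:218766955-218767204 on the plus strand, Dmrta2 at chr5:130034223-130034472 on the plus strand, Zfhx3 at chr19:53551238-53551487 on the plus strand and LOC120098485, a long non-coding RNA, at chr19:40340302-40340551 on the minus strand.

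Neurog2: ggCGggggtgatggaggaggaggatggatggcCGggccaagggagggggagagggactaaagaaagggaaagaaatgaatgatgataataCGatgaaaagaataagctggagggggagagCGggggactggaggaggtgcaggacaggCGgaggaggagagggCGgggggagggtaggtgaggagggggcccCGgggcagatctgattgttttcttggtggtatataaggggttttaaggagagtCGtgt
Dmrta2: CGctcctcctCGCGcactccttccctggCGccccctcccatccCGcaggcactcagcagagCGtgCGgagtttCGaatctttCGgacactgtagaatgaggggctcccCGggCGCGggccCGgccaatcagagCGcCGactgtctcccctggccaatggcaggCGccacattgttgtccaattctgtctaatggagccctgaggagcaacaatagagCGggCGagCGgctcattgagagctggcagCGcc
Zfhx3: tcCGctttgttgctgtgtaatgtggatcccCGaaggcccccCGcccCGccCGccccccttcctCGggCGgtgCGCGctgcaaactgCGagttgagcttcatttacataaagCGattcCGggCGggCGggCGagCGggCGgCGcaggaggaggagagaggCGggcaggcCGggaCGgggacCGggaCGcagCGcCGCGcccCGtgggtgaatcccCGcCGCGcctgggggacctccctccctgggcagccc
LOC120098485: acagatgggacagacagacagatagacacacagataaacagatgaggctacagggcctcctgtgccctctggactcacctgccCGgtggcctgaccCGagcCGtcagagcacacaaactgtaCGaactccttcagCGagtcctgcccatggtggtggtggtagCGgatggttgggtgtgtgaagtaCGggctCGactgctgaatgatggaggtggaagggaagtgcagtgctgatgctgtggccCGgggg

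The first 3 belong to windows with higher methylation in hippocampus and the fourth to a window with higher methylation in hypothalamus. They hold 8, 20, 30 and 9 CpGs, where the median over 33469 RefSeq promoters of the same length is 5. The motif CCGG, which is the same on both strands, occurs 2, 2, 3 and 2 times in them, and 46.2% of all such promoters hold it. A promoter could be placed only with at least 12 listed cytosines, which RRBS gives near CCGG sites. Of the 9193 placed promoters 96.4% hold the motif, and their median is 17 CpGs. In the deposited coordinates, the genome build rn5 per the submitters' processing notes, the 3 starts of Neurog2, Dmrta2 and Zfhx3 fell at 251307387 on chromosome 2, 133586293 on chromosome 5 and 51274393 on chromosome 19. All coordinates below are those of the deposited files. Whether a tile is exonic or intronic was not analysed here.

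The libraries differed in depth, with 178178404 to 625653602 listed calls, and hypothalamus 3 and 4 were the shallowest. The labels name no animals. At 174 dyads whose levels fell into classes as genotypes do, the replicate 1 libraries of the 2 tissues had the same class at 99.4% and the replicate 4 libraries at 100%, against 23% to 36.2% for the other 26 pairs of libraries. The libraries of these 2 pairs may therefore share an animal, which the labels do not say, and p-values measure the spread between these libraries only. None of the 174 dyads lay among the 4051 dyads of the windows. Median calls per dyad were 60.6 in the windows and 61.1 in the other windows with 3 tested tiles.

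Most of the windows were more methylated in hypothalamus. In 89 of them every differing tile was higher in hypothalamus (0.782% of the windows with 3 tested tiles), in 8 every differing tile was higher in hippocampus (0.0703%), and 4 held both directions. The direction was therefore shared by all differing tiles in 97 of 101 windows (96.0%), a description only, because the rule used the tissue difference. Among all 95276 tested tiles 8133 differed (8.54%), 7324 of them with the higher level in hypothalamus (7.69%) and 809 with the higher level in hippocampus (0.849%), so that 90.1% of all differing tiles pointed to hypothalamus. That is a share of single tiles, and it is not a like measure for the share of windows in which all tiles agree. Of the 655 windows with exactly 2 differing tiles, 596 (91.0%) had both in the same direction. Of the 12 windows with a hippocampus-higher tile, 8 held no tile of the other direction, and of the 82 windows with 2 differing tiles and a hippocampus-higher one among them, 23 (28.0%) held none. The difference between these shares was not tested.

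**Figure D1:**
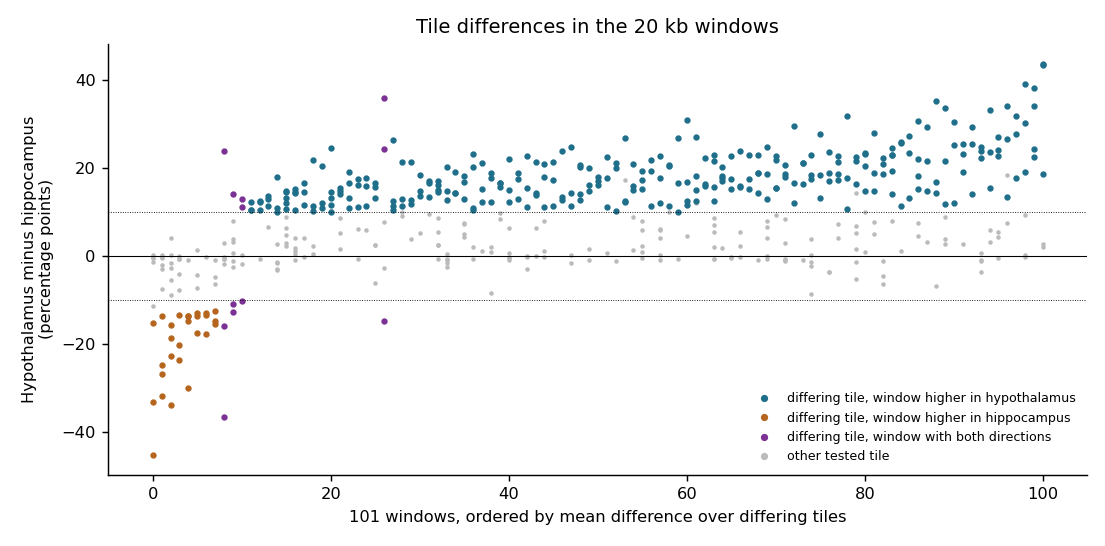
Difference in CpG methylation between the tissues (hypothalamus minus hippocampus, percentage points) for every tested tile of the 101 windows, which are ordered along the x axis by the mean over their differing tiles. Coloured points are differing tiles by the direction of their window and grey points other tested tiles, of which a few lie beyond the dotted lines at 10 points because libraries of the tissues overlapped. The 8 windows higher in hippocampus and the 4 with both directions lie at the left, apart from 1 window of both directions further right.

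Over all tested tiles, those of the windows included, neighbours were alike. The tile next to a differing tile also differed in 28.1% of 2264 cases, against 5.32% for the tile next to a tested tile that did not differ. Where both differed, 98.1% of 636 ordered pairs had the same direction. Within the windows 328 of 540 tested tiles differed (60.7%), a share that the rule sets, and they made up 4.03% of all differing tiles. In the other windows 7.92% of tiles differed. The number of tested tiles also bears on which windows could enter the set: 0.292% of the windows with 3 tested tiles did, 2.67% of those with 6, 0.680% of those with 7 (2 of 294), 11.8% of those with 10 (4 of 34) and none of the 18 with over 10.

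The 89 hypothalamus-higher windows had on average a middle level in hippocampus and a higher one in hypothalamus. Single windows ran from 15.2% to 74.8% in hippocampus and from 34.0% to 89.2% in hypothalamus. Averaged over the differing tiles, the level of the 89 windows was 50.1%, 47.7%, 54.7% and 52.0% in hippocampus 1 to 4, a mean of 51.1% ± 2.96 (SD, n = 4). In hypothalamus 1 to 4 it was 69.3%, 67.4%, 69.4% and 72.0%, a mean of 69.5% ± 1.92 (SD, n = 4). The highest hippocampus library was 3 and the lowest hypothalamus library 2. In these and all windows with a shared direction, levels averaged over differing tiles cannot overlap between the tissues, because the rule separates the libraries in each tile. The mean difference of a window ranged from 11.14 to 35.38 points with a median of 17.50. For the 289 differing tiles the difference ranged from 10.07 to 43.83 points, and their median level was 53.6% in hippocampus and 74.2% in hypothalamus.

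The 8 hippocampus-higher windows had on average a similar level in hippocampus and a lower one in hypothalamus. Single windows ran from 24.9% to 67.1% in hippocampus and from 10.3% to 50.6% in hypothalamus. Averaged over the 8 windows, the level was 47.3%, 49.2%, 45.8% and 50.9% in hippocampus 1 to 4, a mean of 48.3% ± 2.20 (SD, n = 4). In hypothalamus 1 to 4 it was 29.5%, 27.1%, 27.9% and 29.6%, a mean of 28.5% ± 1.22 (SD, n = 4). Hippocampus 3 and hypothalamus 2 were the lowest of their tissues. The window means ran from -14.17 to -31.20 points with a median of -18.45. The 27 differing tiles had median levels of 52.4% in hippocampus and 27.7% in hypothalamus.

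**Figure D2:**
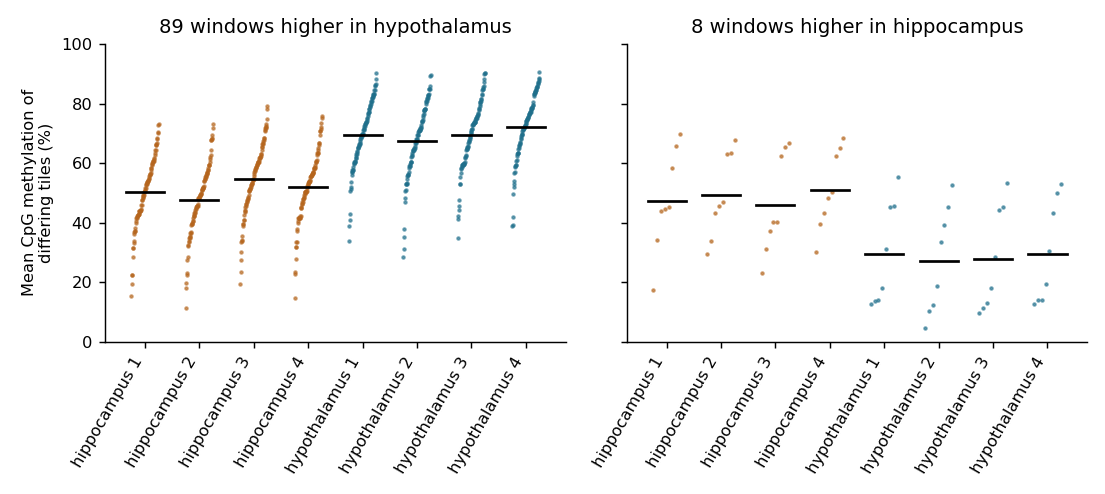
Mean CpG methylation of the differing tiles (%) for each window in each library, with the 89 windows higher in hypothalamus on the left and the 8 higher in hippocampus on the right. Points are windows and bars the mean over windows, which lie at 47.7% to 54.7% in hippocampus and 67.4% to 72.0% in hypothalamus on the left, and at 45.8% to 50.9% and 27.1% to 29.6% on the right.

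The dyads of a differing tile make up the tile's level, so their direction is largely given by the rule and is described only. In the hypothalamus-higher windows 1732 of 1780 dyads of differing tiles (97.3%) were higher in hypothalamus, and at 63.5% the 2 sets of libraries were separate. In the hippocampus-higher windows 220 of 222 dyads (99.1%) were higher in hippocampus and 70.3% were separate. In differing tiles outside the windows the direction of the tile was shared by 97.4% and 98.1% of dyads, and 60.6% were separate where hypothalamus was higher and 51.0% where hippocampus was. Dyads of a tile share fragments and libraries and are not independent. The other tested tiles of the same windows had missed 10 points or overlapped between tissues, so that mostly small differences follow from the rule. They reached 18.51 points, at 146260001 on chromosome 5. In the hypothalamus-higher windows 112 of 167 leaned to hypothalamus, the median being 2.10 points, and 80 of the 167 had a level over 80% and 24 a level under 10%. In the hippocampus-higher windows 24 of 30 leaned to hippocampus, the median being -1.09 points, and 22 of the 30 were under 10%. Over the tiles that did not differ in the other windows the median was 0.01 points.

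The threshold passed through a continuous range of values. The smallest difference inside was 10.1 points, and the largest outside among tiles of the windows with no overlap of the tissues was 9.99. In the windows 18 differing tiles lay between 10 and 11 points, and 6 further tiles with no overlap lay between 9 and 10. Of the windows with 3 differing tiles, 9 had at least 1 of them under 11 points. Among the windows of 2 differing tiles, 14 held another tile with no overlap at 9 to 10 points.

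The surroundings of the windows were described by their tile levels and gene starts. A tile with a level under 10%, as CpG-rich promoters have, was present in 7 of the 8 hippocampus-higher windows (87.5%), in 16 of the 89 hypothalamus-higher windows (18.0%) and in 42.4% of the 11279 other windows. The median level of tested tiles was 18.4%, 67.1% and 73.4% in the same order, and the median number of dyads per tile 8, 5 and 5. The median number of tested tiles per window was 7, 5 and 3, and a window with more tiles has more chances to hold a low one. A placed gene start lay in 3 of the 8, in 9 of the 89 (10.1%) and in 26.3% of the other windows, while the median distance to the nearest placed start was 54.5, 40.3 and 31.5 kb. No test was made of these shares, and tile levels entered the rule.

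The largest difference toward hippocampus was found around Neurog2, a proneural transcription factor that drives neuron formation in the dorsal telencephalon. Over the 3 differing tiles of the window chr2:251300001-251320000 the level in hippocampus 1 to 4 was 45.2%, 46.9%, 37.3% and 48.4% and, in hypothalamus 1 to 4, 13.7%, 12.3%, 13.0% and 13.9%, a difference of -31.20 points (SE 2.49). The hypothalamus libraries stayed within 2 points of each other, and hippocampus 3 was the lowest of its tissue. Of the tiles, 2 lay upstream of the gene start, with centres 4.89 and 3.89 kb before it, and 1 lay 8.11 kb behind it. The tile starting at 251303001 had 61.2%, 70.9%, 49.3% and 67.7% in hippocampus and 16.9%, 18.3%, 20.2% and 12.7% in hypothalamus, from 55 to 289 calls per library. Between these tiles the start itself was unmethylated in both tissues: the 4 dyads from 250 bases before to 50 bases behind it had a level of 2.31% ± 1.90 across hippocampus libraries and 0.391% ± 0.493 across hypothalamus libraries (SD, n = 4 each). The tiles starting at 251306001, 251307001 and 251308001 were all under 2% in both tissues. A tile at 251313001 differed by -11.29 points, but libraries of the tissues overlapped there.

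A window on chromosome 5 held Dmrta2, a DM-domain transcription factor of cortex and hippocampus development, and Dmrta2osl, whose start lies beside it in the opposite direction. In the window chr5:133580001-133600000 the 4 differing tiles were adjacent. Their mean level was 44.4%, 43.3%, 40.2% and 43.1% in hippocampus and 18.1%, 18.7%, 18.1% and 19.4% in hypothalamus, a difference of -24.19 points (SE 0.955). The 4 libraries of each tissue lay close together. The tile centres lay 6.21 to 9.21 kb behind the Dmrta2 start. Along these 4 tiles the hippocampus level was 19.1%, 33.5%, 60.1% and 58.3% and the hypothalamus level 5.49%, 6.84%, 28.3% and 33.7%, so that the farther pair of tiles was the more methylated in both tissues. From 250 bases before to 50 bases behind the Dmrta2 start, 16 dyads had a level of 1.72% ± 1.04 across hippocampus libraries and 1.79% ± 0.553 across hypothalamus libraries (SD, n = 4 each). The 6 tiles of the window closer to the start or before it differed by -7.55 to 0.35 points and did not meet the rule.

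At Zfhx3, a homeobox and zinc finger transcription factor that acts in the circadian clock of the suprachiasmatic nucleus, the differing tiles again stood on both sides of an unmethylated start. Over the 4 differing tiles of chr19:51260001-51280000 the level was 69.7%, 67.9%, 62.5% and 68.4% in hippocampus and 45.4%, 45.1%, 53.3% and 53.1% in hypothalamus, a difference of -17.90 points (SE 2.79). Replicate 3 held both the lowest hippocampus and the highest hypothalamus library. The tile centres ran from 5.11 kb before to 12.9 kb behind the start. The tile farthest before the start, at 51279001, was the most different, with a level of 69.6% ± 6.91 across hippocampus libraries and 39.7% ± 8.25 across hypothalamus libraries (SD, n = 4 each). The 12 dyads in the same stretch around the Zfhx3 start were at 1.73% ± 1.5 and 0.867% ± 0.817 (SD, n = 4 each).

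**Figure D3:**
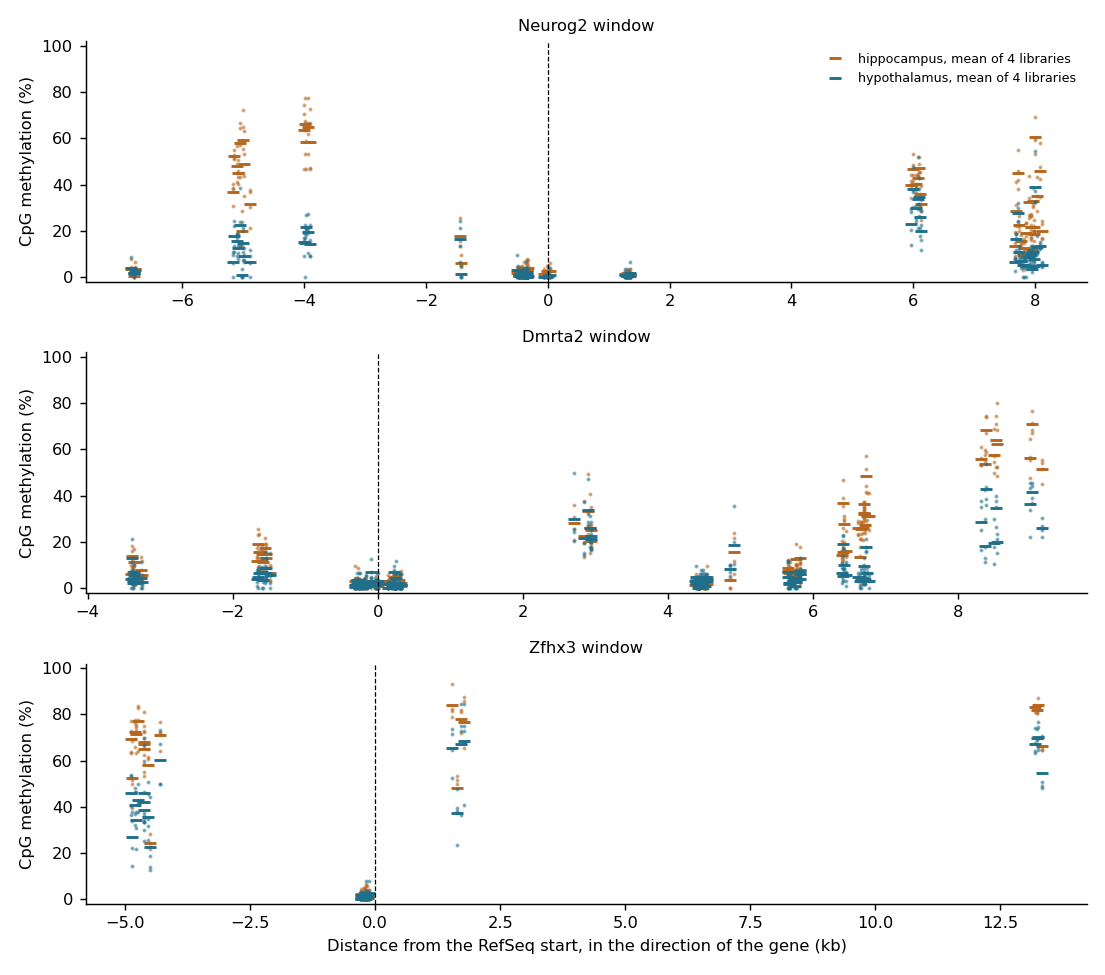
CpG methylation (%) of each dyad against its distance from the start of Neurog2, Dmrta2 and Zfhx3 in the direction of the gene (kb), with points for single libraries and bars for the tissue means. At each start, marked by a dashed line, both tissues are near 0, and the hippocampus bars rise above the hypothalamus bars some kilobases away on both sides or, at Dmrta2, mainly behind it.

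The other 5 hippocampus-higher windows held no placed gene start. In chr14:77680001-77700000, whose nearest placed starts were those of LOC134481773 55.4 kb below and of Evc 488 kb above, 4 of 10 tested tiles differed. The level was 34.3%, 33.8%, 31.2% and 39.4% in hippocampus and 13.9%, 10.3%, 11.3% and 12.6% in hypothalamus, a difference of -22.68 points (SE 1.89). Differing tiles alternated there with tiles under 10%, such as that at 77691001 with 2.54% and 2.93%. In chr3:48180001-48200000 the 3 differing tiles were adjacent, at 62.4% ± 2.85 and 43.3% ± 2.89 (SD, n = 4 each), and were followed by 3 tiles that were under 2% in both tissues. The remaining windows, at 98240001 on chromosome 8, 70880001 on chromosome 19 and 73820001 on chromosome 14, were outside the naming rule and were chosen after their values were seen. Their mean differences were -14.64, -14.60 and -14.17 points. In the chromosome 8 window the replicates differed most, from -4.66 points in replicate 1 to -24.8 in replicate 2. The chromosome 19 window lies between the placed starts of Pard3, a cell polarity protein, 189 kb below, and Nrp1, a receptor of axon guidance, 1085 kb above. RefSeq lists no other named coding gene between them.

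Among the hypothalamus-higher windows the largest mean difference was on chromosome 12. In chr12:25060001-25080000 the level was 33.9%, 32.4%, 40.9% and 33.5% in hippocampus and 71.1%, 60.3%, 73.8% and 77.1% in hypothalamus, a difference of 35.38 points (SE 4.11). Hypothalamus 2 was the lowest and hippocampus 3 the highest of its tissue. The adjacent tiles at 25064001 and 25065001 differed by 43.51 and 43.83 points, while those at 25066001 and 25071001 differed by 2.10 and 2.80. The nearest placed start was that of Cux1, a homeobox transcription factor of upper-layer cortical neurons, 71.5 kb above, and RefSeq lists Col26a1 and Myl10 between the placed starts on either side.

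The next largest lay at 64620001 on chromosome 18, where all 4 tested tiles differed. Its level was 33.0%, 27.5%, 33.7% and 33.5% in hippocampus and 60.7%, 54.7%, 65.8% and 65.9% in hypothalamus, a difference of 29.87 points (SE 3.05). Hippocampus 2 and hypothalamus 2 were the lowest of their tissues. The tiles were at 13.1% to 50.9% in hippocampus and 35.7% to 75.4% in hypothalamus. The window falls between the placed starts of Rnmt, 1321 kb below, and Poli, 310.2 kb above. RefSeq lists 9 named coding genes in that span: Mc5r, Mc2r, Tcf4, Ccdc68, Rab27b, Dynapl1, Dynap, C18h18orf54 and Stard6. Their distances to the window were not analysed here. Another of the windows began 60 kb further along, at 64680001.

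Further large differences toward hypothalamus were found in 4 windows. In chr5:171800001-171820000 the level was 51.4% ± 8.58 across hippocampus libraries and 81.1% ± 1.62 across hypothalamus libraries (SD, n = 4 each), a difference of 29.63 points, and the tile nearest its lower edge was at 2.08% and 2.48%. The nearest placed start was that of LOC134487044, 99.3 kb below. On the upper side it was that of Camta1, a calmodulin-binding transcription activator, 758 kb away. The hippocampus libraries were uneven in this window, at 53.2%, 39.3%, 59.4% and 53.8%, and the hypothalamus libraries alike, at 79.5% to 83.3%. In chr11:90080001-90100000, 10.1 kb below the start of Rtn4r, the receptor of the myelin inhibitor Nogo, the level was 51.8% ± 7.62 and 76.5% ± 2.29 (SD, n = 4 each). RefSeq lists Ccdc188 between the placed starts on either side, those of Zdhhc8 and Rtn4r, and its distance to the window was not analysed here. The windows at 191600001 on chromosome 2 and 146260001 on chromosome 5 differed by 25.86 and 24.75 points. In the first, all 3 tested tiles differed.

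The most differing tiles in a window were 5, found in 3 windows. In chr14:108580001-108600000 they were at 26.4% to 78.6% in hippocampus and 51.0% to 92.7% in hypothalamus, with a window difference of 20.82 points (SE 3.44). Hippocampus 3, at 63.2%, lay nearest to the hypothalamus libraries at 72.2% to 76.7%. In chr1:268380001-268400000 the window difference was 14.84 points (SE 2.05). It lies between the starts of Lcor, 192 kb below, and Arhgap19, 104 kb above. Slit1, a secreted axon guidance protein, is the only named coding gene that RefSeq lists between them. The third, chr5:172820001-172840000, holds a start of Plekhg5. Its level was 58.3%, 56.1%, 61.9% and 58.4% in hippocampus and 72.6%, 68.2%, 73.9% and 72.7% in hypothalamus, a difference of 13.16 points (SE 1.72). The Plekhg5 start in the window, with 23.9% ± 3.19 and 28.6% ± 0.616 at 13 dyads (SD, n = 4 each), was partly methylated in both tissues and was not in a differing tile. Another placed start of Plekhg5 lay 2.29 kb below the window, and its level is not given here.

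In all, 8 of the windows formed 3 runs of adjacent windows. The run chr7:126240001-126300000 had 10 differing tiles, with 20.23 points as the mean of its 3 window differences, and stood between the starts of LOC134479761 and Ppara, a nuclear receptor that binds fatty acids, with no other named coding gene listed between them. The LOC134479761 start lay 26.6 kb below the run, and the Ppara start lay 30.8 kb above the run. In its 3 windows the hippocampus level was 42.0%, 15.2% and 40.3% and the hypothalamus level 66.2%, 34.0% and 58.0%. Tiles under 10% in both tissues lay at its lower side and in its middle. The run chr19:36800001-36860000 also had 10 differing tiles, of 11 tested, and 18.39 points as the mean of its 3 window differences. The start of LOC120098485, whose upstream sequence is printed above, lies in it, and its tile differed: 68.0%, 65.1%, 79.2% and 68.1% in hippocampus against 87.3%, 84.2%, 85.2% and 88.6% in hypothalamus. Hippocampus 3 was the highest of its tissue there. The run chr6:141040001-141080000 had 7 differing tiles, with 18.86 points as the mean of its 2 window differences, and holds 2 RefSeq starts of the non-coding RNA LOC103692702, whose tile did not differ (17.2% and 21.4%).

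**Figure D4:**
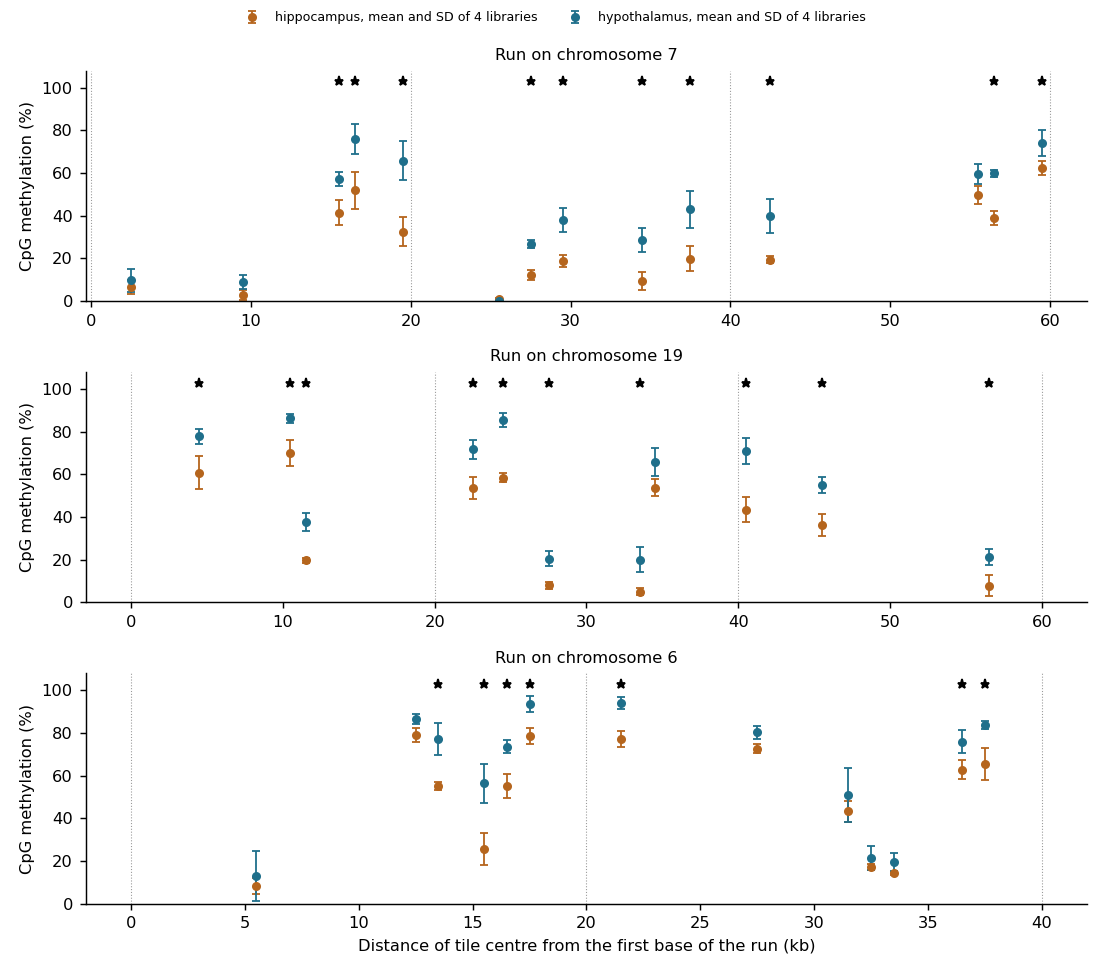
CpG methylation (%) of every tested tile in the 3 runs of adjacent windows against its distance from the first base of the run (kb), as mean and SD of 4 libraries per tissue. Stars mark differing tiles and dotted lines the window edges; the hypothalamus mean is the higher one in all starred tiles, which number 10, 10 and 7.

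The remaining placed starts were in hypothalamus-higher windows. Those of Vwa1, an extracellular matrix protein, and Acads, an enzyme of fatty acid oxidation, were unmethylated in both tissues, at 0.680% and 0.50% and at 1.31% and 1.17%. Those of Pdgfb, Rasl10a and Cbs had no dyad with 10 calls in all libraries. The start of the non-coding RNA LOC120098493 lay in a differing tile. The 3 dyads around that start had 56.0% ± 6.87 across hippocampus and 79.0% ± 3.82 across hypothalamus libraries (SD, n = 4 each). Of the 6 starts of named coding genes with tested dyads, 0 lay in a differing tile, where 8.54% of all tested tiles differed. Apart from Plekhg5, these coding starts had tissue means of 2.31% or less, which leaves little room for a difference of 10 points. Of the other starts with tested dyads, those of LOC120098485 and LOC120098493 lay in a differing tile. Those of LOC103692702 and Dmrta2osl did not.

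In 4 windows the direction changed within 20 kb. The clearest was chr3:176620001-176640000, where the tile at 176622001 had 48.3%, 51.5%, 45.3% and 52.1% in hippocampus and 13.4%, 11.7%, 13.6% and 12.7% in hypothalamus, a difference of -36.47 points. The next tile differed by -15.83 points. About 11 kb from the first, the tile at 176633001 had 71.3%, 68.2%, 72.6% and 65.8% in hippocampus and 92.6%, 94.7%, 93.6% and 93.0% in hypothalamus, a difference of 24.02 points. Between them lay 4 tiles under 5% in both tissues and 1 at 59.6% and 62.6%. In chr12:45680001-45700000 a tile differed by -14.79 and 2 others by 24.46 and 35.98 points, but hypothalamus 3 stood apart from its tissue: at 45696001 it had 47.4%, where hypothalamus 1, 2 and 4 had 66.6%, 72.3% and 76.2%. Smaller changes of direction were seen at 33780001 on chromosome 12 (-10.24, 13.00 and 11.16 points) and, in a window chosen after its values were seen, at 8780001 on chromosome 20 (14.26, -12.72 and -10.86 points).

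The windows were unevenly placed along the genome. Chromosome 12 had 16 of them, 2.28% of its 701 windows with 3 tested tiles, and chromosome 19 had 10, 2.08% of 481. Chromosome 17 had none among 388. The shares on chromosomes 11 and 14 were 1.92% and 1.91%. Chromosome 5 held 11 windows, 1.18% of its 933, where the share over all chromosomes was 0.888%. These shares were not tested, and the start of 14 windows lay within 100 kb of that of another.

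The windows were also found with each library left out and then read in that library, whose methylation levels had no part in choosing them. Its calls still counted toward which dyads and tiles were tested. For replicates 1 and 4 the library that may share its animal stayed among the choosing libraries. Pooled over the 8 libraries, 88.2% of 3146 tile readings lay past the midpoint of the 2 tissue means on the called side. The share was lowest in hypothalamus 2 (75.4%) and hippocampus 3 (80.4%) and highest in hippocampus 2 (97.2%). Differing tiles outside the windows, read in the same way, gave 75.4% to 96.1% by library, a similar range. Beyond all 4 libraries of the other tissue lay 85.7% of the readings in hypothalamus 2 and 98.8% in hypothalamus 4, the extremes of the 8 libraries. Outside the windows the same readings gave 85% and 92.1% in these libraries, and 85% to 96.8% over the 8. The number of windows found rose most without hippocampus 3 (155) and without hypothalamus 2 (160), each with 99 of the 101 among them, and was 97 to 129 without any 1 of the other libraries. In the 97 windows with a shared direction, the difference averaged over replicates 1 and 4 was 0.543 to 1.78 times that over replicates 2 and 3, with a median of 1.13. These 97 windows were chosen with all 8 libraries, so likeness between the replicates largely follows from the rule.

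Cytosines outside CpG, which the rule did not use, were compared between the windows and the other windows within each library. Methylation at CA is laid down in neurons after birth by a de novo methyltransferase and is the main non-CpG form in brain. At CHH cytosines (H is A, C or T) followed by A, the level in the windows was 2.09%, 1.75%, 4.70% and 4.78% in hippocampus 1 to 4 and, in hypothalamus 1 to 4, 3.58%, 2.20%, 2.74% and 3.73%. In the other windows it was 2.06%, 1.73%, 4.52% and 4.81%, and 3.04%, 1.71%, 2.21% and 3.09%. The level in the windows was higher in 7 of 8 libraries, all but hippocampus 4, by 0.30 ± 0.276 points (SD, n = 8; two-sided exact sign-flip permutation test p = 0.0234, Benjamini-Hochberg adjusted over 3 dinucleotides p = 0.0352). At CT the difference was 0.14 ± 0.0866 points, higher in 8 of 8 libraries (exact sign-flip p = 0.00781, the smallest possible, adjusted p = 0.0234), and at CC 0.01 ± 0.0135 points, higher in 7 of 8 (exact sign-flip p = 0.0469, adjusted p = 0.0469). The CT difference was 0.05 to 0.08 points in hippocampus libraries and 0.17 to 0.25 in hypothalamus libraries. The test treats the 8 libraries as independent, and with 4 replicate numbers as the unit no dinucleotide could go below p = 0.125 in an exact test. The CG levels of these same libraries chose the windows, so the test is not independent of that choice. By library the CA difference was 0.04, 0.02, 0.17 and -0.03 points in hippocampus and 0.55, 0.48, 0.52 and 0.64 points in hypothalamus, so that nearly all of it lay in hypothalamus, the tissue in which 89 of the windows were chosen as higher. With the 2 libraries of a replicate number averaged as a block the CA difference could not pass (exact sign-flip p = 0.125, the smallest that 4 values allow). At the genotype-like dyads the 2 libraries had the same class at 36.2% in replicate 2 and 23.0% in replicate 3. For these replicates the block is therefore not a known unit. Against other windows of similar CG level the CA difference did not pass, at 0.19 points (exact sign-flip p = 0.102).

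Relative to the other windows of the same library and summed over the windows of a direction, CA was higher in the same tissue as CG. This is given with no test, because both come from the same libraries and tissue contrast. Before that subtraction the level in the hypothalamus-higher windows was 2.13%, 1.74%, 4.74% and 4.78% in hippocampus and 3.83%, 2.45%, 2.98% and 3.97% in hypothalamus, and in the hippocampus-higher windows 1.44%, 1.33%, 4.11% and 4.36% against 1.90%, 0.797%, 0.993% and 1.98%. The tissues overlapped in both sets. After it, CA in the hypothalamus-higher windows was 0.07, 0.02, 0.21 and -0.03 points in hippocampus 1 to 4 and, in hypothalamus 1 to 4, 0.79, 0.74, 0.77 and 0.88 points. The tissues did not overlap. In the hippocampus-higher windows it was -0.61, -0.39, -0.41 and -0.45 points in hippocampus 1 to 4 and, in hypothalamus 1 to 4, -1.13, -0.92, -1.22 and -1.11 points, so that CA was below the other windows in both tissues and lowest in hypothalamus. CHH cytosines followed by C, at which neuronal methylation is rare, ranged from 0.303% to 1.81% between libraries in the windows. With that level subtracted, the means in hippocampus and hypothalamus were 0.07 and 0.77 points for the hypothalamus-higher windows and -0.46 and -1.05 points for the hippocampus-higher windows. The values by direction pool 5104 CA positions in the hypothalamus-higher and 573 in the hippocampus-higher windows, against 482766 in the other windows. The other windows were not matched for CG level by direction. The median CG level of tested tiles was 67.1% in the hypothalamus-higher, 18.4% in the hippocampus-higher and 73.4% in the other windows.

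**Figure D5:**
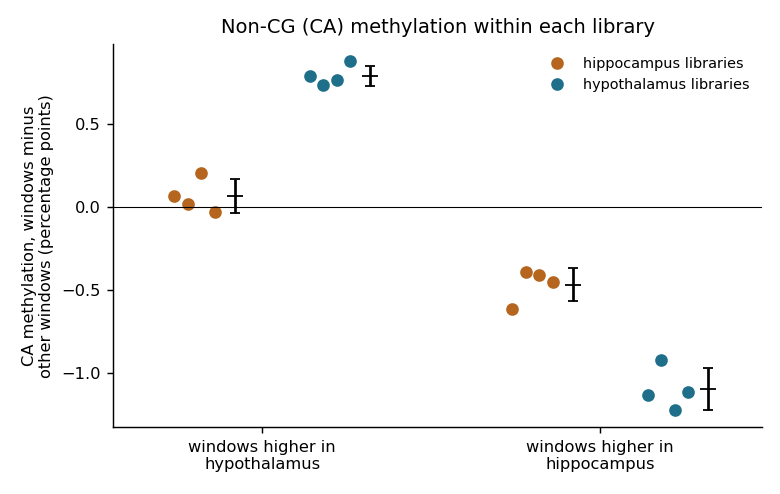
Methylation at CHH cytosines followed by A in the windows minus that in the other windows of the same library (percentage points), by direction of the windows. Points are libraries and bars mean and SD of 4; hypothalamus libraries lie at 0.74 to 0.88 in the hypothalamus-higher windows, above all hippocampus libraries, and at -1.22 to -0.92 in the hippocampus-higher windows, below them.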

How the data were processed

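CpG methylation was measured by RRBS in 4 hippocampus and 4 hypothalamus libraries. The authors deposited, for every listed cytosine, 2 counts (methylated and all calls) and the fraction, their ratio, which was not used. No position was listed with under 10 calls, and the deepest of each library had 7970 to 8022, so depth may have been limited before deposit. The submitters' processing notes name Bowtie and rn5. The way of calling methylation, trimming reads and handling duplicates is not given in the sources used here.

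Counts of both strands of a CpG were added, tile levels are summed methylated over summed calls, and window levels are unweighted means over differing tiles (SE from both SDs). Groups follow the labels. The windows, lists and named windows were chosen with earlier results of these data known. Named were the 5 windows with most differing tiles, the 5 of largest mean difference toward hypothalamus not already among these, the 5 toward hippocampus, 3 with both directions and 3 runs, with any further window marked as chosen after its values were seen. Non-CG levels were compared by an exact test over 256 sign flips.

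RefSeq promoters (250 bases before and 50 after the start, GRCr8) were placed on the deposited coordinates where at least 12 listed cytosines, 95% of them matching, fitted at a single place, a step added after seeing the data. Of 32007 searched, 9364 were placed once, 98.2% of them on the chromosome RefSeq gives, and 91.7% of 9173 neighbouring pairs were spaced alike within 100000 bases. Gene order is from RefSeq. The tile and window calls and the sign-flip test were tested on simulated data. Python 3.11.15, numpy 2.4.6, pandas 2.3.3 and scipy 1.17.1 were used.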

Additional observations from a re-analysis of the deposited data

Results flagged for a closer look

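In the window at 64620001 on chromosome 18, hippocampus 2 lay apart from the rest of its tissue. Its mean level over the differing tiles was 27.5%, where hippocampus 1, 3 and 4 had 33.0%, 33.7% and 33.5%. The gap to the nearest library took up most of the range of the 4 values. Among 58 groups of 4 values examined in the named windows this was the only one past Dixon's 95% limit, where about 1 in 20, here 2.90, is past it by chance.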

How the results depend on the processing

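Against 101 windows, 26 were found with at least 20 calls per dyad (23 of them shared), 6 at 20 points, 31 with 5 dyads per tile, 39 with 10 kb windows, 3 when 5 differing tiles were needed, and 176 with no separation of the libraries. All differing tiles shared a direction in 100% of windows at 20 points, 5 dyads, 5 tiles and 10 kb. The share was 92.3% with at least 20 calls per dyad and 90.3% with no separation. With unweighted means of dyad levels it was 93.8% of 97 windows, of which 85 were among the 101. It was 96.0% with tiles shifted by 500 bases, 96.7% with windows shifted by 10 kb and 94.3% with the replicate block described below. Leaving out 1 library gave 97 to 160 windows, 90.7% to 95.8% of them with a shared direction, and mean differences of 17.53 to 18.46 and -18.78 to -21.70 points. The mean difference was 18.40 points in hypothalamus-higher windows (24.85 at 20 points) and -19.80 in hippocampus-higher windows. For the latter it was -27.71 at 20 points, where 1 window was left, and -24.23 with 5 dyads, where 4 were left. It was -22.97 with tiles shifted by 500 bases, where 3 windows were left, and -23.16 without hypothalamus 3 and 4, where 7 were left. A limit of 20 points raises the size of these means by itself. At least 20 calls per dyad gave 3 hippocampus-higher windows, and windows shifted by 10 kb gave 5. Needing 5 differing tiles left no hippocampus-higher window. Held-out readings ran from 75.4% to 97.2%, with 96.6% in hypothalamus 4.

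With the replicate block, where all 4 same-numbered pairs had to differ in the same direction in place of separation, 140 windows were found, which must include the 101, since separation implies it. For CA the replicate block gave 0.30 points (exact sign-flip p = 0.125, the smallest that 4 values allow). Replicates 2 and 3 alone, chosen after seeing the data, gave 0.30 points (p = 0.125 by the exact test, also the smallest) and 77.1% of 144 windows with a shared direction. Without hypothalamus 3 and 4, also chosen later, CA differed by 0.21 points (exact p = 0.0938), and against windows of similar CG level by 0.19 (exact p = 0.102); without 1 library it was 0.25 to 0.35 points. The cause of these changes was not tested. Window edges, the 10-point limit and the number of tested tiles set which regions could enter, and positions under 10 calls were not analysed here.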
